A study of Homo sapiens with 5 samples.

Results

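The 10 genes examined were 9 of the vascular endothelial growth factor (VEGF) and platelet-derived growth factor (PDGF) families and ANGPTL4. They comprised the VEGF ligands VEGFA, VEGFB, VEGFC and PGF, the angiopoietin-like protein gene ANGPTL4, the PDGF ligands PDGFA, PDGFB, PDGFC and PDGFD, and the receptor gene PDGFRB. They were found by gene symbol among the 37181 entries of the deposited expression table, in which each of the 10 had a single entry. PDGFRB was the only receptor among them, and ANGPTL4 belongs to neither family by sequence.

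RNA was sequenced from HCC827, an established human lung adenocarcinoma line that carries an activating deletion in exon 19 of EGFR, and from its gefitinib-resistant derivative HCC827/GR. The derivative was selected from the parental line by stepwise increasing doses of gefitinib, an EGFR tyrosine kinase inhibitor, over more than 6 months, and shares the EGFR deletion. Of the 5 libraries used, 3 were of HCC827/GR (replicates 1, 2 and 3) and 2 of parental HCC827 (replicates 2 and 3). Each group is a single cell line, and neither the labels nor the sequencing methods say whether the replicates were separate cultures, so the p-values measure the spread between these libraries, which may be technical. Values are FPKM, fragments per kilobase of transcript scaled to the mapped fragments of the library, so levels of different genes are compared per length. From the smallest steps between low values, HCC827/GR replicates 1, 2 and 3 held about 51800000, 54300000 and 65100000 mapped fragments. HCC827 replicates 2 and 3 held about 53700000 and 47800000. These depths are approximate.

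VEGF ligands are secreted dimers that act on the receptor tyrosine kinases FLT1, KDR and FLT4, mainly on blood and lymphatic endothelium, and tumour cells are a common source of them. PDGF ligands act on PDGFRA and PDGFRB, which mark fibroblasts, smooth muscle and pericytes. PDGFC and PDGFD are secreted as latent proteins that need proteolytic removal of a CUB domain before they bind a receptor, whereas PDGFA and PDGFB are processed inside the cell.

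Among the 10 genes, 3 rose in HCC827/GR, and all 3 encode PDGF ligands: PDGFB, PDGFC and PDGFD. No gene fell by the same test. In these bulk libraries, more cells expressing a gene and more RNA per cell cannot be told apart. A mean of 0.5 FPKM over the 5 libraries was required for testing, which 8 genes reached, while PGF and PDGFRB lay under it. With limma and Benjamini-Hochberg adjustment over 16189 entries, 3 of the 8 passed an adjusted p of 0.05 as higher, where 5.26% of all entries tested did so, and 0 passed as lower, where 5.71% of all entries did. At an unadjusted p under 0.05, 4 of the 8 were higher, against 13.4% of all entries, and 2 were lower, against 13.8%. The same 3 ligands also changed at least 2-fold on the log2(FPKM + 1) scale at an unadjusted p under 0.05, which 2.96% of all entries did in that direction, and 0 of the 8 met this rule as lower, against 3.97% of all entries. With Ballgown's model, and with limma without HCC827 replicate 3, 2 of the 3 met it as higher, PDGFC being the exception. The median log2 fold change of the 8 was 0.40, beside 0.00 over all entries tested.

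**Figure D1:**
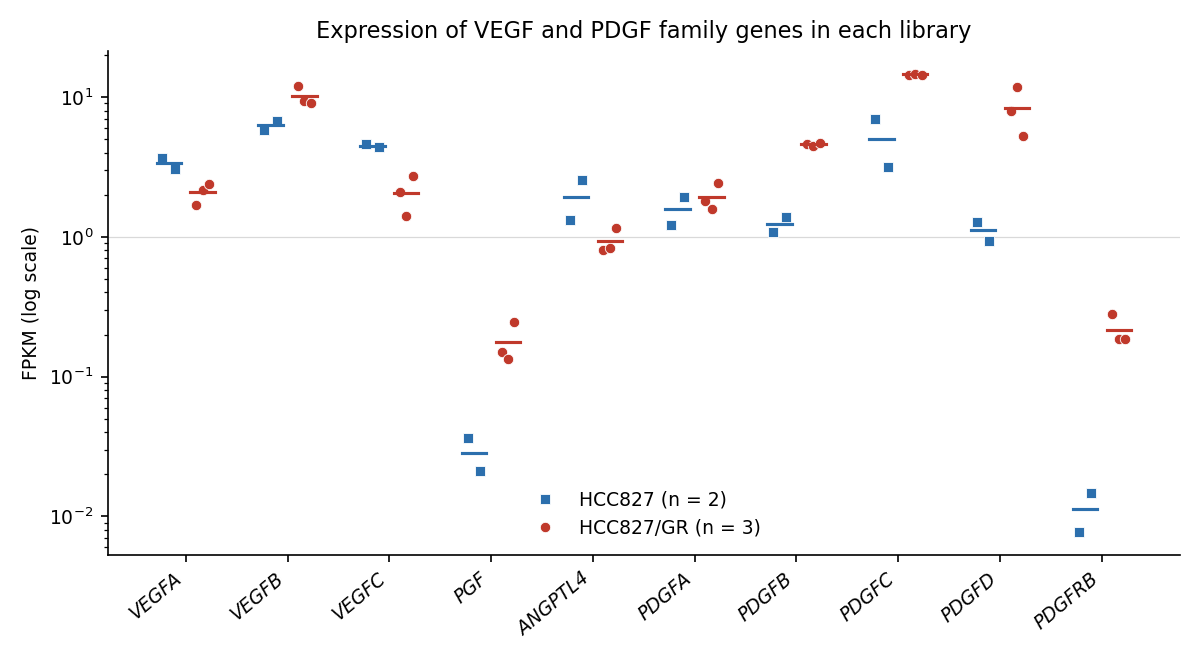
FPKM of the 10 genes (logarithmic axis) in each library of HCC827 (blue squares, n = 2) and HCC827/GR (red circles, n = 3), with horizontal lines at the group means. The HCC827/GR points of PDGFB, PDGFC, PDGFD, PDGFRB, VEGFB and PGF lie above the parental points. Those of VEGFA, VEGFC and ANGPTL4 lie below them, and the points of PDGFA overlap.

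PDGFD had the highest fold among the genes that were tested. It lies on the minus strand of chromosome 11 (chr11:103907186-104164379, GRCh38) and encodes a ligand that binds mainly PDGFRB. Its level was 7.91, 11.7 and 5.22 FPKM in HCC827/GR replicates 1, 2 and 3 and 1.28 and 0.941 FPKM in HCC827 replicates 2 and 3. All HCC827/GR libraries were above both parental ones, although the resistant libraries themselves spread more widely than those of any other PDGF ligand. The means were 8.28 ± 3.27 (SD, n = 3) and 1.11 ± 0.243 FPKM (SD, n = 2), a 7.44-fold ratio. The log2 fold change was 2.08 (SE 0.32, adjusted p = 0.0254 by limma), which ranked 85th among all entries ordered by rise. Without HCC827/GR replicate 1 the adjusted p was 0.0895, without HCC827 replicate 2 it was 0.119 and without HCC827 replicate 3 it was 0.130, and the log2 fold change stayed between 1.82 and 2.34 whichever library was left out.

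PDGFB, on the minus strand of chromosome 22 (chr22:39223359-39244751, GRCh38), encodes the chain that binds both PDGF receptors. Its level was 4.64, 4.45 and 4.68 FPKM in HCC827/GR replicates 1, 2 and 3 and 1.07 and 1.38 FPKM in HCC827 replicates 2 and 3. The resistant libraries lay close together and well above the parental pair. Group means were 4.59 ± 0.122 (SD, n = 3) and 1.23 ± 0.216 FPKM (SD, n = 2), a 3.74-fold ratio. The rise of 1.33 on the log2 scale (SE 0.10) had an adjusted p of 0.00591 by limma, the smallest among the 8 genes, and it kept its call when any 1 library was left out, with adjusted p-values by limma of at most 0.0410. The call at an adjusted p of 0.05 was lost with Ballgown's model, which the study used (adjusted p = 0.179). It was also lost with the replicate number as a block (adjusted p = 0.130 by limma). The calls of PDGFC and PDGFD were lost under both. The study itself selected genes by a 2-fold change and an unadjusted p. By such a rule on the log2(FPKM + 1) scale, PDGFB and PDGFD were still taken as higher with Ballgown's model.

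PDGFC, on the minus strand of chromosome 4 (chr4:156760454-156971394, GRCh38), encodes a ligand that binds mainly PDGFRA. It was the most abundant of the 10 genes in the resistant line, at 14.4, 14.7 and 14.4 FPKM in HCC827/GR replicates 1, 2 and 3, against 6.91 and 3.18 FPKM in HCC827 replicates 2 and 3. The resistant libraries hardly differed, whereas the parental ones differed from each other by more than the level of the lower of them. Mean levels were 14.5 ± 0.164 (SD, n = 3) and 5.04 ± 2.64 FPKM (SD, n = 2), a 2.88-fold ratio. The log2 fold change was 1.43 (SE 0.28, adjusted p = 0.0437 by limma). Leaving out any 1 HCC827/GR library gave adjusted p-values between 0.117 and 0.127 at a nearly equal fold change, and leaving out HCC827 replicate 2 or replicate 3 moved the log2 fold change to 1.89 or 0.97.

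PDGFA, on chromosome 7 (chr7:497258-520296, minus strand, GRCh38), whose product binds PDGFRA, was the member whose groups overlapped. Its level was 1.80, 1.57 and 2.43 FPKM in HCC827/GR replicates 1, 2 and 3 and 1.21 and 1.94 FPKM in HCC827 replicates 2 and 3. HCC827 replicate 3 lay above replicates 1 and 2 of the resistant line. The log2 fold change was 0.19 (SE 0.20, adjusted p = 0.597 by limma), and it turned to -0.015 without HCC827 replicate 2.

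The receptor gene PDGFRB, on chromosome 5 (chr5:150113837-150155872, minus strand, GRCh38), was near the floor of the table. It was listed at 0.278, 0.184 and 0.184 FPKM in HCC827/GR replicates 1, 2 and 3 and at 0.00777 and 0.0147 FPKM in HCC827 replicates 2 and 3. The 3 resistant libraries were above both parental ones, at levels near those of PGF and below those of the other ligands. If the fragments behind these values lay on the longest annotated transcript, they would number about 82.4, 57.3 and 68.7 in the resistant libraries. In the parental ones they would number about 2.39 and 4.02, so the 19.2-fold ratio of the means rests on very few parental fragments. The gene lay under the filter and was not tested in the main comparison. Without the filter its adjusted p was 0.0764 by limma, with a log2 difference of 0.26 on the log2(FPKM + 1) scale, which understates changes of low genes.

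**Figure D2:**
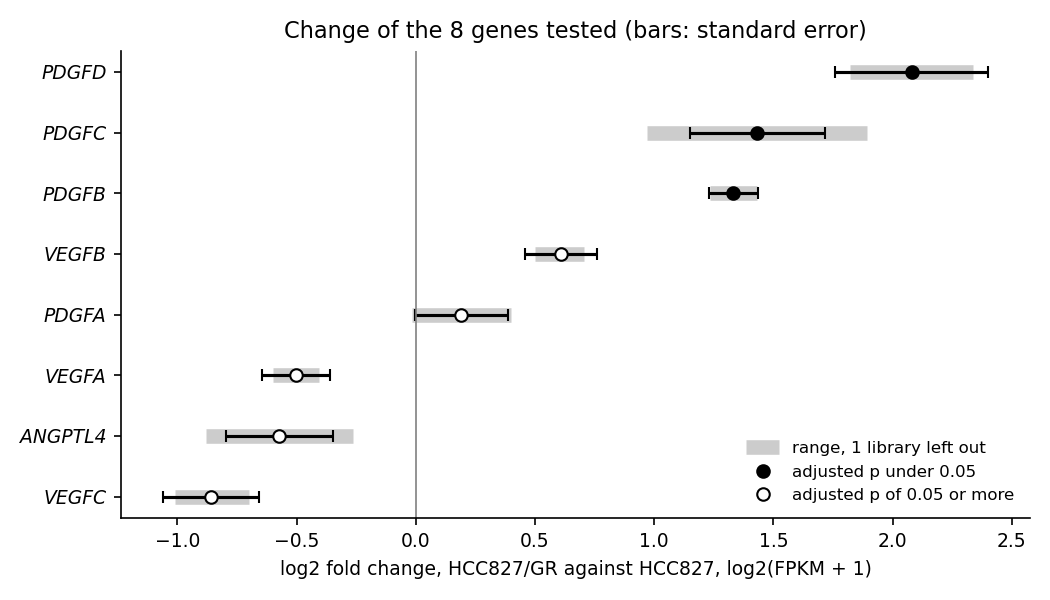
Log2 fold change of HCC827/GR relative to HCC827, computed on log2(FPKM + 1), for the 8 genes tested, with the standard error (black bars) and the range of the estimates when 1 library was left out (grey). PDGFB, PDGFC and PDGFD (filled circles, 1.33, 1.43 and 2.08) had adjusted p-values under 0.05, and the grey range of PDGFA reached just below 0.

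The VEGF ligands showed no call in either direction. VEGFA, the principal endothelial growth factor, lies on chromosome 6 (chr6:43770184-43786487, plus strand, GRCh38). It was measured at 1.70, 2.18 and 2.39 FPKM in HCC827/GR replicates 1, 2 and 3 and at 3.66 and 3.07 FPKM in HCC827 replicates 2 and 3. All resistant libraries were below both parental ones. The means of 2.09 ± 0.354 (SD, n = 3) and 3.37 ± 0.418 FPKM (SD, n = 2) gave a log2 fold change of -0.50 (SE 0.14, adjusted p = 0.102 by limma), which did not pass the threshold.

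VEGFC, a ligand of FLT4 known for lymphatic growth, lies on chromosome 4 (chr4:176683538-176792727, minus strand, GRCh38). Its FPKM was 2.08, 1.42 and 2.72 in HCC827/GR replicates 1, 2 and 3 and 4.60 and 4.38 in HCC827 replicates 2 and 3. Here too the groups did not overlap, with the resistant libraries low. The parental mean of 4.49 ± 0.155 FPKM (SD, n = 2) was 2.17 times the resistant mean of 2.07 ± 0.650 FPKM (SD, n = 3), and the log2 fold change was -0.86 (SE 0.20, adjusted p = 0.0657 by limma).

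VEGFB, a ligand of FLT1, lies on chromosome 11 (chr11:64234538-64238793, plus strand, GRCh38) and was the VEGF ligand with the highest level in every library. The values were 11.9, 9.37 and 9.10 FPKM in HCC827/GR replicates 1, 2 and 3 and 5.79 and 6.73 FPKM in HCC827 replicates 2 and 3. Unlike VEGFA and VEGFC, it was higher in each resistant library than in either parental one. Its log2 fold change was 0.61 (SE 0.15, adjusted p = 0.0736 by limma) between means of 10.1 ± 1.56 (SD, n = 3) and 6.26 ± 0.663 FPKM (SD, n = 2).

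PGF, the placental growth factor gene on chromosome 14 (chr14:74941834-74955784, minus strand, GRCh38), also encodes a ligand of FLT1. It was listed at 0.150, 0.135 and 0.247 FPKM in HCC827/GR replicates 1, 2 and 3 and at 0.0362 and 0.0211 FPKM in HCC827 replicates 2 and 3. The groups did not overlap, but the parental values stand for only about 6.89 and 3.58 fragments if these lay on the longest annotated transcript. The ratio of the means was 6.18, and without the filter the adjusted p was 0.161 by limma.

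ANGPTL4, on chromosome 19 (chr19:8363289-8374373, plus strand, GRCh38), encodes a secreted inhibitor of lipoprotein lipase and is a known target of PPAR receptors and of hypoxia. Its level was 0.807, 0.837 and 1.16 FPKM in HCC827/GR replicates 1, 2 and 3 and 1.31 and 2.56 FPKM in HCC827 replicates 2 and 3. The resistant libraries were lower, but HCC827 replicate 2 lay close to HCC827/GR replicate 3. The log2 fold change was -0.57 (SE 0.22, adjusted p = 0.190 by limma), and it moved to -0.88 without HCC827 replicate 2 and to -0.26 without HCC827 replicate 3.

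Of the 10 genes, 9 had groups that did not overlap, 7 of them among the 8 tested, where 46.3% of all entries tested did not overlap. Of the 8 tested, 4 were higher in HCC827/GR without overlap, against 22.8% of all entries tested, and 3 were lower, against 23.4%. With 3 libraries against 2, a two-sided exact permutation test of the difference in means cannot go below p = 0.1. The exact permutation test gave p = 0.1 for 8 genes, p = 0.2 for PDGFD and p = 0.5 for PDGFA.

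Summed over the 4 VEGF ligands, expression was 15.9, 13.1 and 14.5 FPKM in HCC827/GR replicates 1, 2 and 3 and 14.1 and 14.2 FPKM in HCC827 replicates 2 and 3. The groups overlapped in this total. Within it the make-up differed, since VEGFB supplied 75.2%, 71.5% and 62.9% of the VEGF ligand total in the resistant libraries and 41.1% and 47.4% in the parental ones. VEGFA supplied 10.7%, 16.6% and 16.5% in the resistant libraries and 26.0% and 21.6% in the parental ones. VEGFC supplied 13.1%, 10.8% and 18.8% in the resistant libraries and 32.7% and 30.9% in the parental ones. The ratio of VEGFB to VEGFA was therefore 7.01, 4.31 and 3.80 in HCC827/GR replicates 1, 2 and 3 and 1.58 and 2.19 in HCC827 replicates 2 and 3. Such shares within a library do not depend on the scaling between libraries. They are descriptions, with no test.

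The 4 PDGF ligands together gave 28.8, 32.4 and 26.7 FPKM in HCC827/GR replicates 1, 2 and 3 and 10.5 and 7.44 FPKM in HCC827 replicates 2 and 3. Every resistant library exceeded both parental libraries, and the PDGF total was above the VEGF total in the resistant line and below it in the parental line. PDGFC held the largest share in each library, at 45.3% to 53.9% in HCC827/GR and at 66.0% and 42.7% in HCC827. PDGFD held 12.3% and 12.7% in HCC827 replicates 2 and 3 and 27.5%, 36.1% and 19.5% in HCC827/GR replicates 1, 2 and 3. The share of PDGFA was 11.5% and 26.1% in the parental libraries and 6.25%, 4.84% and 9.08% in the resistant ones.

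**Figure D3:**
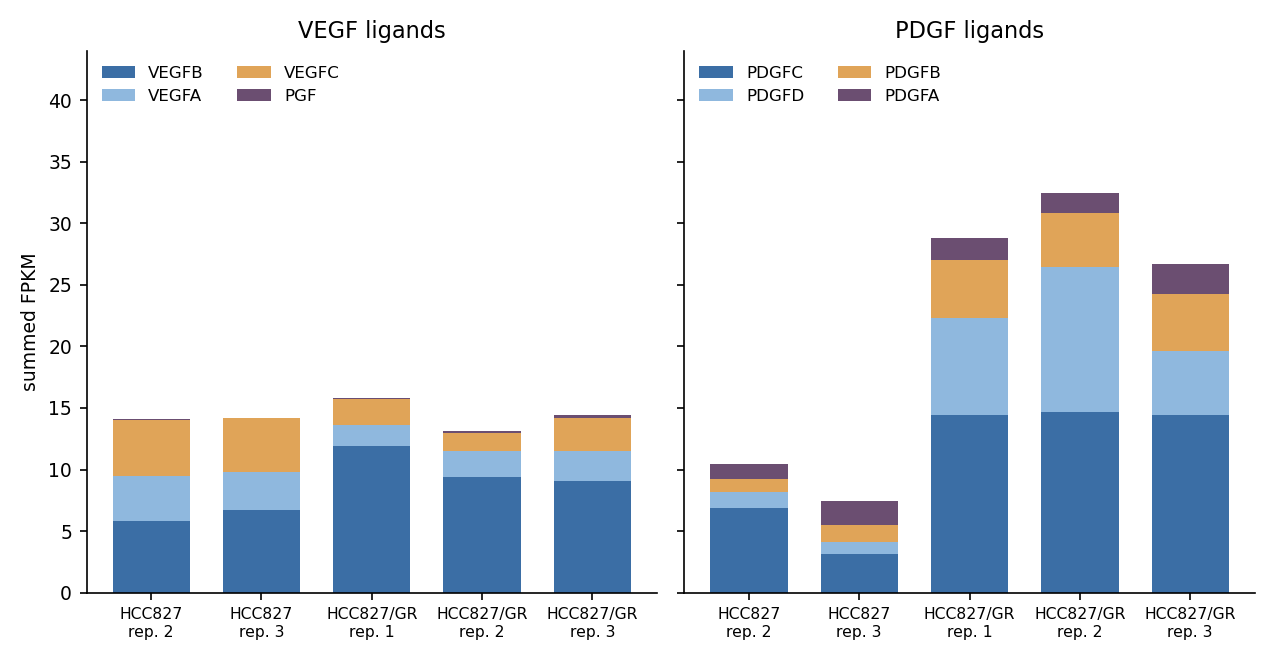
Summed FPKM of the VEGF ligands (left) and the PDGF ligands (right) in each library, with the contribution of each gene stacked. The VEGF totals lie between 13.1 and 15.9 FPKM in all 5 libraries, whereas the PDGF totals are 26.7 to 32.4 FPKM in HCC827/GR and 7.44 and 10.5 FPKM in HCC827.

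The receptors through which these ligands act were sought in the same libraries. FLT1, KDR, FLT4 and the ligand gene VEGFD were listed at no more than 0.0912 FPKM in any library and were not tested. KDR, the main VEGFA receptor, was at 0.0743, 0.0584 and 0.0830 FPKM in HCC827/GR replicates 1, 2 and 3 and at 0 and 0.00672 FPKM in HCC827 replicates 2 and 3. The neuropilin co-receptor NRP1 was plentiful by comparison, at 14.4, 22.2 and 22.3 FPKM in the resistant libraries and 23.8 and 26.1 FPKM in the parental ones (adjusted p = 0.373 by limma). PDGFRA was the more abundant PDGF receptor gene, at 1.88, 1.88 and 1.91 FPKM in the resistant libraries and 2.40 and 2.53 FPKM in the parental ones. Its log2 fold change was -0.26 (adjusted p = 0.144 by limma), so the 2 PDGF receptor genes differed between the lines in opposite directions without a call for either. Of the 8 further receptors and ligands, 4 were tested, and limma called 0 in either direction, where 5.26% of all entries were called higher and 5.71% lower. Of these 4, 2 had an unadjusted p under 0.05 as lower, against 13.8% of all entries.

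The receptor genes also bear on which cells these libraries held. Of 12 fibroblast and pericyte marker genes, 4 were tested. TAGLN, a smooth muscle and stress fibre gene, was called higher, against 5.26% of all entries, and 0 were called lower, against 5.71%. Without the filter the TAGLN call was lost (adjusted p = 0.0690 by limma). The summed level of the 12 was 5.31, 5.33 and 5.41 FPKM in HCC827/GR replicates 1, 2 and 3 and 5.47 and 5.35 FPKM in HCC827 replicates 2 and 3. That sum was nearly level, but its genes did not move alike. TAGLN was at 1.57, 1.56 and 1.81 FPKM in HCC827/GR and 0.615 and 0.350 FPKM in HCC827, while PDGFRA, the most abundant of the list, and FAP, at no more than 0.0216 FPKM in HCC827/GR and at 0.157 and 0.253 FPKM in HCC827, had lower values in the resistant line. LUM had lower values as well, at no more than 0.0255 FPKM in HCC827/GR and at 0.0930 and 0.257 FPKM in HCC827. ACTA2, CSPG4 and COL3A1 were also lower, without overlap. Their means were 0.210, 0.174 and 0.0613 FPKM in HCC827/GR and 0.377, 0.327 and 0.137 FPKM in HCC827. The ranges of COL1A1 (0.391 to 0.860 FPKM) and RGS5 (0.519 to 0.684 FPKM) overlapped between the lines, and DCN, THY1 and COL1A2 were at no more than 0.0620 FPKM in any library, with DCN at 0 in HCC827/GR replicate 1 and HCC827 replicate 3. The part of these genes in the PDGFRB values was not tested. Of the endothelial markers, CDH5, VWF, TEK, TIE1 and CLDN5 stayed at or below 0.0773 FPKM. The endothelial sum was 0.198, 0.123 and 0.196 FPKM in the resistant libraries and 4.49 and 3.44 FPKM in the parental ones, nearly all from an entry named PECAM1 that holds only an assembled transcript with no Ensembl identifier. Of 5 blood cell and platelet markers with an entry, CD68, a lysosomal protein gene, was the most abundant, at 30.8 to 38.9 FPKM, and PTPRC was at no more than 0.0228 FPKM. The keratins among the epithelial markers were abundant, with KRT18 the highest. The lung lineage gene NKX2-1 was low, at 0.963, 0.762 and 0.415 FPKM in HCC827/GR replicates 1, 2 and 3 and at 4.6 and 4.0 FPKM in HCC827 replicates 2 and 3. Of the 6 epithelial markers tested, 5 fell in HCC827/GR, against 5.71% of all entries. Among these 5, KRT18 lost its call without the filter (adjusted p = 0.175 by limma). The summed level of the 6 was 544, 573 and 443 FPKM in the resistant libraries and 1068 and 1186 FPKM in the parental ones. Whether the change in epithelial genes has a part in the values of the growth factor genes was not tested.

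Proteases that release or mature these ligands were examined next. ST14, which encodes the membrane protease matriptase, a known activator of PDGFD, fell from 37.9 and 31.6 FPKM in HCC827 replicates 2 and 3 to 1.42, 2.05 and 1.19 FPKM in HCC827/GR replicates 1, 2 and 3. All resistant libraries were far below the parental ones, in the direction opposite to PDGFD itself. The log2 fold change of ST14 was -3.82 (adjusted p = 0.00234 by limma). PLAU, encoding urokinase, another activator of PDGFD, was at 31.7, 39.0 and 55.8 FPKM in the resistant libraries and 75.4 and 93.6 FPKM in the parental ones, with an adjusted p of 0.0857 by limma. PLAT, encoding the tissue plasminogen activator that cleaves PDGFC, was at 0.860, 0.643 and 0.782 FPKM in the resistant libraries and 0.559 and 0.619 FPKM in the parental ones, with an adjusted p of 0.534. In all, 12 of 15 genes of this list were tested, with CTSD (log2 fold change 0.86) called higher and ST14 and PCSK6 (-0.95) called lower by limma, against 5.26% of all entries higher and 5.71% lower. Without the filter the PCSK6 call was lost (adjusted p = 0.0538 by limma).

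Genes that relay signals below the VEGF and PDGF receptors mostly had no call. Of 46 such genes, 41 had an entry under their own symbol and were tested, 3 rose, 3 fell and 35 were not called, with a median log2 fold change of 0.02. These shares, 3 of 41 in each direction, lie near the 5.26% and 5.71% over all entries and are no result about the list. FYN, a Src-family kinase that binds activated PDGF receptors, rose by 1.37 on the log2 scale (adjusted p = 0.0147 by limma). PIK3CD, a catalytic subunit of phosphoinositide 3-kinase, rose by 0.91 (adjusted p = 0.0208). Those that fell included RASA1, a Ras GTPase-activating protein recruited by PDGFRB (log2 fold change -0.69), and the adaptor gene PXN (-0.66). The calls of PIK3CD, RASA1 and PXN were lost without the filter, with adjusted p-values by limma of 0.0559, 0.0747 and 0.0664. The most abundant gene of the list, RAC1, was not called.

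Hypoxia-inducible factors (HIF) and PPAR receptors are known regulators of VEGFA and ANGPTL4, so their own genes and other targets were read beside them. Of 6 tested genes of the HIF factors and their control, EGLN3, an oxygen-sensing prolyl hydroxylase that is itself induced by HIF, was called lower, against 5.71% of all entries. It was at 0.125, 0.266 and 0.0916 FPKM in HCC827/GR replicates 1, 2 and 3 and at 3.0 and 2.75 FPKM in HCC827 replicates 2 and 3. All resistant libraries were low, and the log2 fold change of EGLN3 was -1.74 (adjusted p = 0.00552 by limma). A link between EGLN3 and the values of VEGFA or ANGPTL4, neither of which was called, was not tested. EPAS1, encoding HIF-2 alpha, was at 20.1 ± 1.57 (SD, n = 3) and 18.2 ± 0.913 FPKM (SD, n = 2) and was not called (adjusted p = 0.490), and HIF1A lies in an entry joined with other genes, so its level cannot be read alone. Of 19 HIF targets tested, VLDLR rose (log2 fold change 1.40) and the glycolytic gene PGK1 fell (-1.56), with a median of -0.11 over the list. These shares, 1 of 19 in each direction, lie near the 5.26% and 5.71% over all entries and are no result about the list. Of 10 tested genes of the PPAR list, PPARG was called higher, against 5.26% of all entries. It rose from 3.47 and 3.58 FPKM in HCC827 replicates 2 and 3 to 8.09, 8.32 and 8.48 FPKM in HCC827/GR replicates 1, 2 and 3. The PPARG groups lay far apart, with a log2 fold change of 1.04 (adjusted p = 0.00628 by limma). Whether PPARG has a part in the values of ANGPTL4 was not tested. LPL, the enzyme that ANGPTL4 inhibits, was listed at 0 in 4 of the 5 libraries.

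RefSeq promoter windows of 250 bases before the start were read for the short HIF core motif, ACGTG or GCGTG on either strand. At least 1 window was found for 7 of the 10 genes. None was found for VEGFA, PDGFB and PDGFC. Of 11 windows in all, 8 held a match, from 6 of the 7 genes, while 43.2% of 35093 promoters of the same length held at least 1. The single windows of ANGPTL4, VEGFB, VEGFC and PDGFRB each held 1 match, at 234, 61, 59 and 142 bases before the start. Matches were also found in 3 of the 4 windows of PDGFA, and 1 of the windows of PGF, which overlap each other, held a match at 162 bases before its start. In the windows of VEGFB, PDGFA and PGF, every match lay at or beyond the first base of an annotated exon. Only those of ANGPTL4, VEGFC and PDGFRB lay ahead of it. The single window of PDGFD, which had the largest log2 fold change among the genes tested, held neither this motif nor the E-box CACCTG, which 17.5% of the promoters held on either strand. Shown are the stretches, outside annotated exons, for ANGPTL4 (chr19:8363905-8364150, plus strand) and VEGFC (chr4:176792923-176793172, minus strand), which had lower values in HCC827/GR, and for PDGFRB (chr5:150155873-150156095, minus strand), which had higher ones (RefSeq, GRCh38.p14, written 5′ to 3′ on the strand of the gene, with the match in capitals).
ANGPTL4: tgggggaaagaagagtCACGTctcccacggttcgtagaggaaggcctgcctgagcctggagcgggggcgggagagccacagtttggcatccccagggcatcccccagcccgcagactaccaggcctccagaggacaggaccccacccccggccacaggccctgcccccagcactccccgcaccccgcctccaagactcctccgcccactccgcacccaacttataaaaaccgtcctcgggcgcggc
VEGFC: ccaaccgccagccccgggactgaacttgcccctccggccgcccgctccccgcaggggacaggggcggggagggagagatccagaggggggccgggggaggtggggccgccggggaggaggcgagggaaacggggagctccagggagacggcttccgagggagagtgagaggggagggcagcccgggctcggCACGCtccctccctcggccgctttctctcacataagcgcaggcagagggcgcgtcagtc
PDGFRB: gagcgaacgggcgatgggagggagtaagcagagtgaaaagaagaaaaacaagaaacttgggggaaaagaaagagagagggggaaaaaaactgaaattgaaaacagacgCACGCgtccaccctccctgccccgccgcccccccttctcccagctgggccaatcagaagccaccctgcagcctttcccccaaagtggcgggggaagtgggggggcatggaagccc
A match to these letters is a description of the sequence and not evidence of a bound site. All 3 matches lie on the opposite strand, so they are read here as CACGT in ANGPTL4 and as CACGC in VEGFC and PDGFRB. The genes with a match include ones whose values were lower and ones whose values were higher in the resistant line.

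Beyond the VEGF family, other angiogenic factors and inhibitors were counted. Of 18 such genes, 11 were tested, 5 rose and 0 fell by limma, where 5.26% of all entries were called higher and 5.71% lower. At an unadjusted p under 0.05, 6 of the 11 were higher, against 13.4% of all entries, and 1 was lower, against 13.8%. The median log2 fold change was 1.21. THBS1, encoding the angiogenesis inhibitor thrombospondin-1, was the most abundant of them in HCC827/GR, at 391, 267 and 425 FPKM in HCC827/GR replicates 1, 2 and 3 and 33.0 and 38.6 FPKM in HCC827 replicates 2 and 3. Its resistant libraries exceeded every member of the VEGF and PDGF families in level, and its log2 fold change was 3.27 (adjusted p = 0.00521 by limma). THBS2 (2.09) and COL18A1 (1.21), the source of endostatin, also encode inhibitors and rose. SERPINF1, another inhibitor gene, lay under the filter and was listed at 0 in all 3 HCC827/GR libraries and at 0.865 and 0.624 FPKM in HCC827 replicates 2 and 3, with an adjusted p of 0.0301 by limma without the filter. CXCL8 (1.54) and CYR61 (1.14), which encode factors that promote vessel growth, rose as well. Their calls were lost without the filter, where the adjusted p by limma was 0.0763 for CXCL8 and 0.0556 for CYR61.

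**Figure D4:**
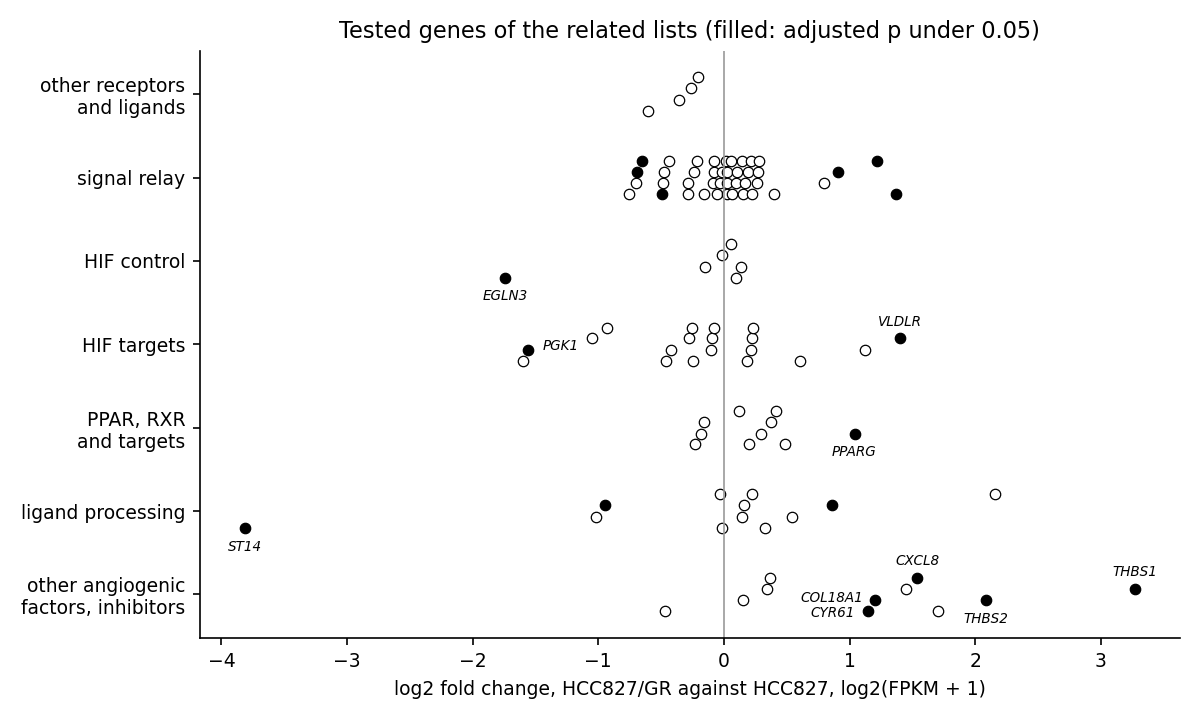
Log2 fold change of HCC827/GR relative to HCC827, computed on log2(FPKM + 1), for every tested gene of the 7 related lists, filled where the adjusted p by limma was under 0.05. The 41 signal relay genes centre near 0 (median 0.02), ST14 lies at -3.82, and the other angiogenic factors and inhibitors lie mostly to the right (median 1.21).

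The entries nearest in pattern to PDGFB and PDGFD, the members with the smallest p-values, were found over the 5 libraries by the root mean square difference of centred log2(FPKM + 1). For PDGFB they were FNDC10 (0.0411), TLN2 (0.0438) and LPAR3 (0.0462), the last encoding a lysophosphatidic acid receptor. TLN2, encoding the integrin-binding protein talin-2, was at 7.32, 6.58 and 6.71 FPKM in HCC827/GR replicates 1, 2 and 3 and at 1.86 and 2.23 FPKM in HCC827 replicates 2 and 3. For PDGFD the nearest were PRLR (0.121), the prolactin receptor gene, PDZK1 (0.137) and GPC4 (0.145), a cell-surface proteoglycan gene. PRLR was at 3.32, 5.96 and 2.60 FPKM in the resistant libraries, where PDGFD too was highest in replicate 2 and lowest in replicate 3, and at 0.0655 and 0.0817 FPKM in the parental ones. Such likeness is what the search selected for, so it is a description with no test.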

How the data were processed

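The study's methods describe paired-end sequencing of RNA depleted of ribosomal RNA, whereas the labels describe a single-end small RNA library. The table holds values for protein-coding genes and was read as messenger RNA expression. Per the same methods, reads were trimmed with Cutadapt, checked with FastQC, mapped (Bowtie2, TopHat2) and assembled (StringTie), and the authors deposited FPKM values per assembled gene, computed with StringTie and Ballgown. Tool versions are not given in the sources used here. The submitters' processing notes list hg18 with no stated role, but the table holds no coordinates and its transcript identifiers were found in GENCODE release 29, so the positions given are those of GENCODE 29 on GRCh38. A total of 1 FPKM column that matched no sample was left out.

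Depth was estimated from the smallest step of FPKM multiplied by transcript length. For products of at most 0.3, between 61.7% and 65.0% lay within 0.15 of a whole multiple of the step, where evenly spread values would give 30%, so counts were not recovered. HCC827/GR was compared with HCC827 by limma 3.58.1 in R 4.3.3 on log2(FPKM + 1), two-sided and with a mean-variance trend. Entries had to average 0.5 FPKM or more over the 5 libraries, which left 16189, with Benjamini-Hochberg adjustment over all of them. Ballgown's model, which the study used, was an alternative, because its library-size covariate leaves few degrees of freedom here. Tables, the exact permutation test and plots used Python 3.11.15 with numpy 2.4.6, pandas 2.3.3 and matplotlib 3.10.9.

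The members, the lists of related genes and the tests were chosen with earlier results of these data known. All 10 members are named. A list gene is named where its adjusted p was under 0.05, where it is a receptor or ligand of the families, or where it is the most abundant of its list, and for the 2 members with the smallest p the 3 entries nearest in pattern are named. PLAU, PLAT, EPAS1, LPL, HIF1A, SERPINF1 and the marker genes are named for their known roles, after their values were seen. Some genes that the rule names are not reported here. Of the list symbols, 15 had no entry of their own, in part because the assembly joined neighbouring genes. The alternatives tried were 0.1 as the pseudocount, the filter dropped or raised to 1 FPKM, median-ratio and quantile scaling, limma without the trend, Ballgown's model, a replicate block, entries of one symbol summed, each library left out, and, added after the data were seen, the log2 ratio of mean FPKM.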

Additional observations from a re-analysis of the deposited data

How the results depend on the processing

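Under 4 settings (the filter raised to a mean of 1 FPKM, median-ratio or quantile scaling, limma without the trend) and with entries of one symbol summed, PDGFB, PDGFC and PDGFD kept their calls, and the median of all entries moved by at most 0.021 on the log2 scale. Of the 3 genes called higher, 1 remained without the filter and 0 with Ballgown's model, and leaving out 1 library left 1 to 2. Over all entries the number higher was 504 without the filter and 6 with Ballgown's model, against 851, and the number lower was 9 with Ballgown's model, against 924. Leaving out 1 library gave 202 to 485 higher and 287 to 477 lower. With Ballgown's model 2782 entries and 4 of the 8 genes had an unadjusted p under 0.05. At a pseudocount of 0.1, the 2-fold rule with an unadjusted p took 860 entries as higher and 1024 as lower, against 480 and 643, and 1 of the 8 genes as lower, against 0 (0 to 1 with 1 library left out). The same rule took 2 of the 8 as higher with Ballgown's model, and 2 to 3 with 1 library left out.

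The log2 fold change of PDGFB was 1.32 with Ballgown's model (adjusted p = 0.179), and 1.23 to 1.43 with 1 library left out. That of PDGFC was 1.61 at a pseudocount of 0.1 (adjusted p = 0.0528), 1.43 without the filter (0.0861), 1.46 with Ballgown's model (0.385) and 0.97 to 1.89 with 1 library left out. That of PDGFD was 2.08 without the filter (adjusted p = 0.0550), 2.33 with Ballgown's model (0.284) and 1.82 to 2.34 with 1 library left out. PDGFA turned to -0.015 without HCC827 replicate 2 and reached 0.40 at most. Over the alternatives run, adjusted p-values by limma or Ballgown's model were 0.0589 to 0.364 for VEGFC, 0.0600 to 0.258 for VEGFB, 0.0990 to 0.320 for VEGFA and 0.104 to 0.471 for ANGPTL4.

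Replicate numbers 2 and 3 occur in both groups, but nothing says what they share, and deviations of same-numbered libraries correlated at 0.033 and 0.015. With the replicate block, limma called 0 entries higher and 0 lower (3545 at an unadjusted p under 0.05) and 0 of the 8 genes (5 at an unadjusted p under 0.05), with log2 fold changes of 1.32 for PDGFB (adjusted p = 0.130), 1.43 for PDGFC (0.171) and 2.08 for PDGFD (0.143). Number 1 has no parental partner, so the block rests on 4 libraries.

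The log2(FPKM + 1) scale shrinks low genes. The log2 ratio of mean FPKM was -0.69 for VEGFA, -1.12 for VEGFC, -1.05 for ANGPTL4, 1.90 for PDGFB, 2.90 for PDGFD, 2.63 for PGF and 4.26 for PDGFRB. A pseudocount of 0.1 gave 1.09 for PGF and 1.49 for PDGFRB. PGF and PDGFRB have values under fewer alternatives, since they lie under the filter. Where 1 parental library was left, its spread was taken from the other group. With 2 parental libraries, the spread of that group is poorly known, and fragment counts behind the FPKM are only approximate. The causes of these changes were not tested.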
